A study of Mus musculus with 6 samples.

Results

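Cytosolic ribosomal protein genes were described in ChIP-seq peak lists from adult mouse skeletal muscle. Members were taken by symbol from the protein-coding genes of GENCODE on GRCm38. A symbol had to start with Rpl or Rps followed by a digit, or be Rplp0, Rplp1, Rplp2 or Rpsa. Symbols with -ps and the Rps6k kinases, which are not ribosomal proteins, were left out. This gave 86 of 21829 protein-coding gene names. Of these, 46 encode proteins of the large (60S) subunit and 31 proteins of the small (40S) subunit. The other 9 were paralogs of a ribosomal protein gene (Rpl3l, Rpl7l1, Rpl10l, Rpl22l1, Rpl36al, Rpl39l, Rps27l and Rps27rt) and Rps19bp1, whose product binds Rps19. The members lay on 19 chromosomes, 4 of them on X, and had 229 annotated protein-coding transcript starts in all. 30 members had 1 start.

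The study asked which genes the transcription factor Maf binds in myofibers and how its sites relate to acetylated histone H3 lysine 27 (H3K27ac). Nuclei came from the gastrocnemius and quadriceps, fast hindlimb muscles, of wild-type C57BL/6N mice aged 2 months, with no treatment named. Maf and H3K27ac were each precipitated in 2 biological replicates, and 2 input samples were not analysed here. The deposited lists hold positions only, so read depth and the level of binding at a peak are unknown, and intervals cover the counting of genes alone. Replicate 1 of H3K27ac had 44887 regions and replicate 2 had 44987, whereas the Maf lists held 74 and 5467 peaks. The Maf replicates thus differed widely, and all Maf peaks near members come from replicate 2. H3K27ac lay within 1 kb of a start for 8 of 8 myofiber markers in both replicates and for 0 of 3 liver and 0 of 2 neuron markers. It also lay at 3 of 3 endothelial, 2 of 2 fibro-adipogenic and 2 of 2 macrophage markers, and at 1 of 2 and 2 of 2 satellite cell markers. Regions at genes that every cell uses can therefore not be assigned to one cell type.

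A ribosome is built from ribosomal RNA and one copy of most ribosomal proteins, which assemble into the large and the small subunit in the nucleolus. The genes are scattered over the genome, are short and highly transcribed in nearly all cells, and many hold small nucleolar RNAs in their introns. Their mRNAs carry a 5′ terminal oligopyrimidine (TOP) tract, a C followed by further pyrimidines, through which mTOR controls their translation, and mTOR signalling is a main route to growth of muscle fibers. H3K27ac marks active promoters and enhancers. Maf is a basic leucine zipper factor that binds DNA at sites built on the half-site TGCTGA. Rpl3l, a paralog of Rpl3, is made in skeletal muscle and heart, where it takes the place of Rpl3 in part of the ribosomes.

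Promoter sequences are given for a few members, chosen by hand and not typical of all. The following stretches run from 80 bases before the start to 20 from the start on, so that the start is base 81. They are examples of genes with and without H3K27ac and were read from the RefSeq GRCm38.p6 genome at the GENCODE reference start, the start of the best supported principal transcript. Capitals mark CCGGAA or its complement TTCCGG, the core of Ets family sites, and any tract of C and at least 4 more pyrimidines at the start itself. Rpl36 (chr17:56613336-56613435, plus strand) and Rpl37 (chr15:5116565-5116664, plus strand), both of the large subunit, hold both features, which most members do not. Rpl3 (chr15:80083387-80083486, minus strand) and its muscle paralog Rpl3l (chr17:24727740-24727839, plus strand) hold neither in this stretch.
Rpl36: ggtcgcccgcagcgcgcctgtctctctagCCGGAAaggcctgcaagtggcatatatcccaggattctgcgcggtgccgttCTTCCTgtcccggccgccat
Rpl37: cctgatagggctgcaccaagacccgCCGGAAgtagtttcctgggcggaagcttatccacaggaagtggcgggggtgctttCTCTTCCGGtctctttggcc
Rpl3: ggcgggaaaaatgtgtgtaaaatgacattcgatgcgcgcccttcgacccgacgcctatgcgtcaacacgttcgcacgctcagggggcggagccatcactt
Rpl3l: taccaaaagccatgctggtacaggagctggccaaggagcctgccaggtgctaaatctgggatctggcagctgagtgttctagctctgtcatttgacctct

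The 3 members without H3K27ac at the start, all paralogs, are shown in the same way. Rpl10l (chr12:66284382-66284481, minus strand) and Rps27rt (chr9:114982720-114982819, minus strand) have 1 exon, and Rpl39l (chr16:10170148-10170247, plus strand) has 3. The first 20 bases of the parent gene Rps27 with 10 bases before them (chr3:90213632-90213661, minus strand) are given for comparison. Rps27rt shares a run of 16 bases with this stretch, which begins at its own start and 4 bases after the reference start of Rps27.
Rps27: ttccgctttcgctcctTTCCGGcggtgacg
Rps27rt: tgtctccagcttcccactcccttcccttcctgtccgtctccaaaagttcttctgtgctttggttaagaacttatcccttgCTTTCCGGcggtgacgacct
Rpl39l: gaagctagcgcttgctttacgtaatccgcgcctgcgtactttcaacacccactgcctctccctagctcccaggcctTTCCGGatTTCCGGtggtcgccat
Rpl10l: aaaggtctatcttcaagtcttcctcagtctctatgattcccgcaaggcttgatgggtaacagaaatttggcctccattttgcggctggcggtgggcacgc

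Nearly every ribosomal protein gene carried H3K27ac at its start. In replicate 1, 83 of 86 members had a region within 1 kb of a start (96.5%, 95% Clopper-Pearson interval 90.1 to 99.3), against 57.0% of all protein-coding genes. Replicate 2 gave the same 83 members, against 57.3%. These were also the members marked in both replicates (55.6% of all genes) and in the regions of both replicates merged (58.7% of all genes). In each replicate the start itself lay inside a region in all 83, so that widening the window from 0 to 1 kb added no member. Across all genes, a start lay inside a region in 54.8% in replicate 1 and 55.1% in replicate 2.

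Both subunits were fully covered. All 46 large subunit genes (interval 92.3 to 100%) and all 31 small subunit genes (88.8 to 100%) were marked in each replicate. The stalk genes Rplp0, Rplp1 and Rplp2, whose products recruit translation factors to the ribosome, and Rpsa, a small subunit gene whose product is also known as the laminin receptor, had regions of 1539, 2009, 1920 and 1955 bp when the replicates were merged. Of the 9 paralogs and binding protein genes, 6 were marked. Fau, which encodes a ribosomal protein fused to a ubiquitin-like protein, and Rack1, a scaffold protein of the small subunit, fall outside the symbol rule. Both genes were marked in both replicates, with merged regions of 2205 and 2636 bp.

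The 3 unmarked members differed in their distance to the mark. For Rpl10l, a testis-expressed retrogene of Rpl10, the nearest region lay 1025439 bp away in replicate 1 and 1110679 bp in replicate 2. For Rpl39l, a germ cell paralog of Rpl39, the distances were 127653 and 127102 bp. For Rps27rt, a retrogene of Rps27, they were 3172 and 3142 bp. Rps27rt was thus the one member that counted at 10 kb and not at 1 kb. Within 10 kb, 84 of 86 members had a region in replicate 1 (97.7%, 91.9 to 99.7), and the same number did in replicate 2, in both, and in the merged regions. The share of all genes was 64.3% in replicate 1, 64.5% in replicate 2, 62.8% in both and 66.1% in the merged regions. The parents of the unmarked paralogs were marked: Rpl10 had a merged region of 6931 bp, Rpl39 of 2780 bp and Rps27 of 2051 bp. Copies of ribosomal protein genes are common in the genome, and 301 annotated pseudogenes had a ribosomal protein name. H3K27ac lay within 1 kb of the 5′ end of 19 of these in replicate 1 (6.31%, 3.84 to 9.68) and of 21 in replicate 2 (6.98%, 4.37 to 10.5). How reads that match several copies were treated is not given in the sources used here, so a call at a near-identical copy is uncertain in either direction.

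The regions at ribosomal protein genes were of middle length. The median length was 1864 bp in replicate 1 (quartiles 1671 and 2234) and 1929 bp in replicate 2 (1752 and 2270). Over all genes with a region within 1 kb the medians were 2036 bp (1463 and 3186) and 2111 bp (1534 and 3312). In the merged regions the median was 2026 bp for the members and 2192 bp for all marked genes. The members were less spread than all marked genes. Of them, 68 of 83 (81.9%) lay between the quartiles of all marked genes, where 50% of those genes lie. Some other gene lists described below were about as narrow, and others were wider. Merged quartiles were 1800 and 2408 bp for the members and 1565 and 3502 bp for all marked genes. They were 1461 and 2116 bp for mitochondrial ribosomal protein genes and 1546 and 2226 bp for ribosome biogenesis genes. Only 1 member (1.20%) had a region of 10 kb or more, against 4.28% of all marked genes. Large and small subunit genes had merged medians of 2018 and 2051 bp, with quartiles of 1768 and 2446 bp for the large and 1840 and 2408 bp for the small. A length is not a level of the mark.

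**Figure D1:**
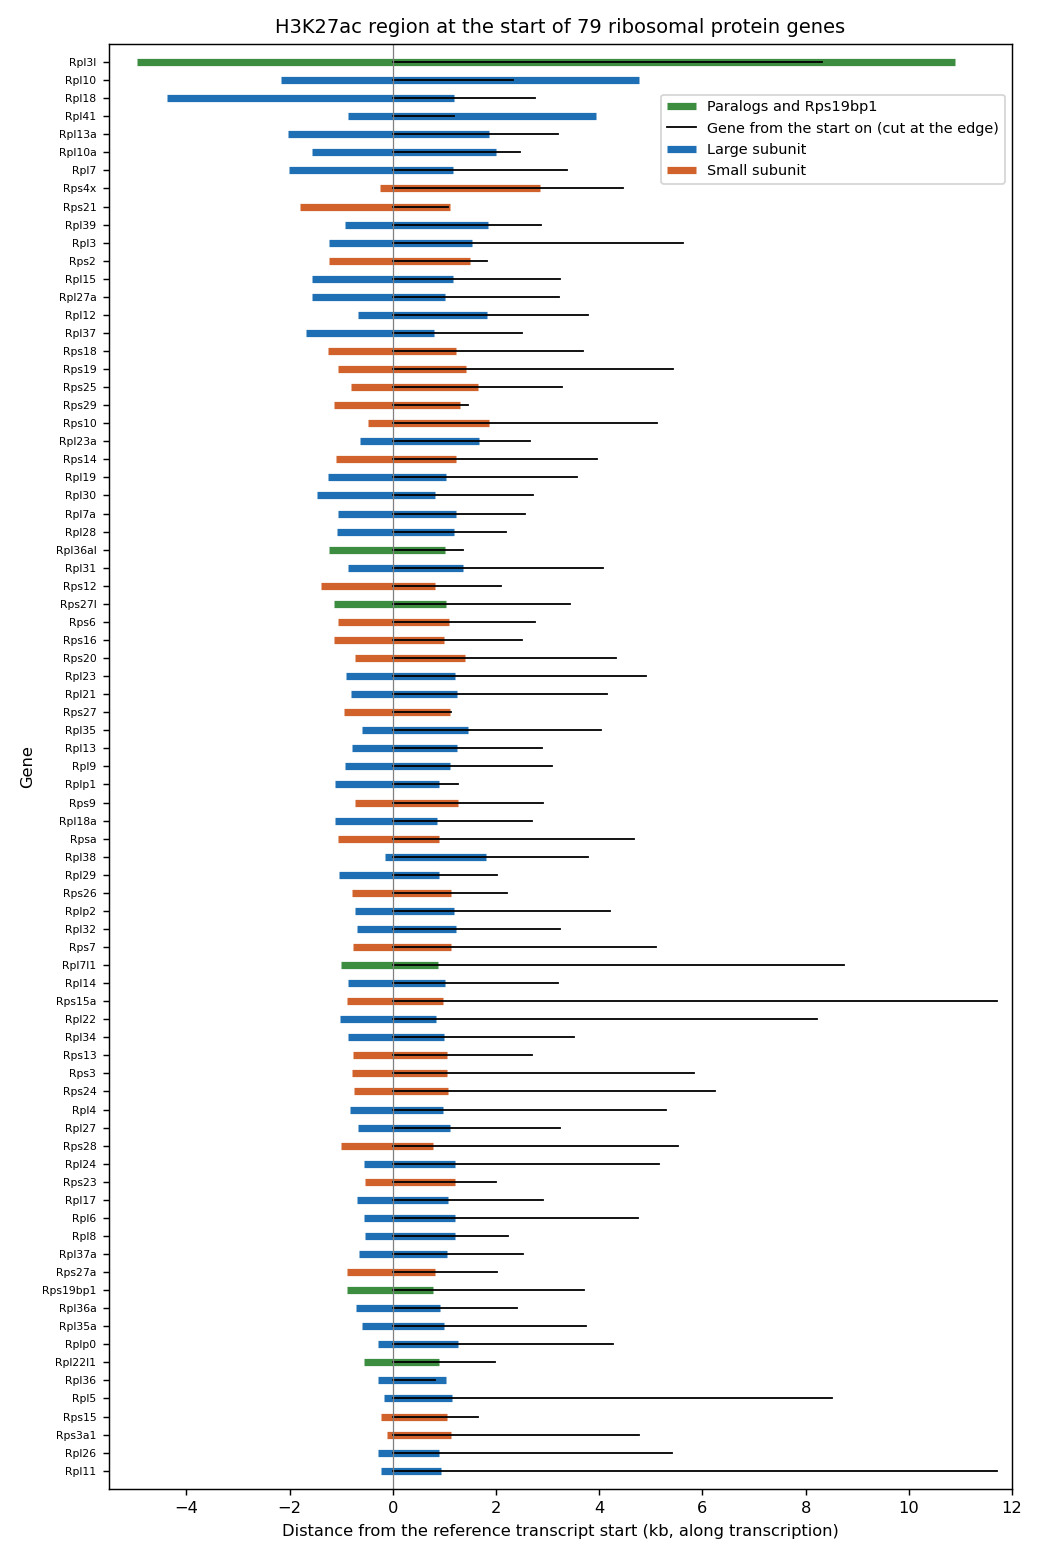
Merged H3K27ac region (coloured bar) at the reference start of 79 marked members, ordered by length, with distance in kb along transcription on the x axis and the gene body from the start on as a black line. Rpl3l reaches from 4956 bp before to 10894 bp after its start, and Rpl11 at the bottom from 233 bp before to 941 bp after.

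Rpl3l stood apart from the other members. Its region was 15440 bp long in replicate 1 and 12772 bp in replicate 2, and 15851 bp merged (chr17:24722864-24738714). It covered the whole gene of 8324 bp and held starts of 2 other genes, Msrb1 and Ndufb10. Rpl3, the parent gene, had 2298 and 2779 bp, with 31.2% of the gene covered. Rpl10 (6931 bp), Rpl18 (5563 bp) and Rpl41 (4800 bp) were also among the longest by merged length. The region at Rpl18 also held a start of Sphk2, and that at Rpl41 a start of Zc3h10. The long regions at Rpl10 and Rpl41 reached beyond the gene and covered it fully.

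The shortest merged regions were those of Rpl11 (1175 bp), Rpl26 (1184 bp), Rps3a1 (1234 bp) and Rps15 (1294 bp), followed by Rpl5 and Rpl36 with 1309 bp each. Rpl5 and Rpl11, whose products form a particle with 5S ribosomal RNA that restrains Mdm2, were both among them. All of these lay more downstream than upstream of the start. The region of Rps3a1 reached 105 bp upstream and 1128 bp downstream, and that of Rpl5 161 and 1147 bp.

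Among the paralogs other than Rpl3l, the regions were close to the parents' in some pairs and not in others. Rpl22l1 had 1455 bp in replicate 1 and 1432 bp in replicate 2, and Rpl22 1864 and 1818 bp. Rpl7l1 had 1637 and 1888 bp, and Rpl7 3167 and 3064 bp. Rpl7 is thus the longer of its pair in both replicates, but its merged region also held a start of another gene, Rdh10. Rpl36al had 2094 and 2111 bp, more than Rpl36a on the X chromosome with 1457 and 1615 bp. The merged region of Rpl36al also held a start of Mgat2. Rps27l, a p53-regulated paralog, had 2008 and 2167 bp beside 1929 and 1963 bp at Rps27, whose merged region also held a start of Rab13. Rps19bp1 had 1386 and 1681 bp, and Rps19 2287 and 2402 bp.

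The lengths differed little between replicates for most members. The ratio of replicate 2 to replicate 1 had a median of 1.01 and ranged from 0.751 to 1.81 over the 83 members. It was within 1.25-fold in 77 members (92.8%), against 81.5% of the 12127 genes marked in both lists. The 6 beyond it were Rpl10 (3828 and 6931 bp, a ratio of 1.81), Rps4x (1466 and 2580 bp, 1.76), Rps10 (1522 and 2364 bp, 1.55), Rpl23a (1649 and 2071 bp, 1.26), Rpl27 (1325 and 1660 bp, 1.25) and Rpl10a (3573 and 2683 bp, 0.751). The 2 members with the highest ratios both lie on X. The other X-linked members, Rpl39 and Rpl36a, had 2310 and 2663 bp and 1457 and 1615 bp.

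**Figure D2:**
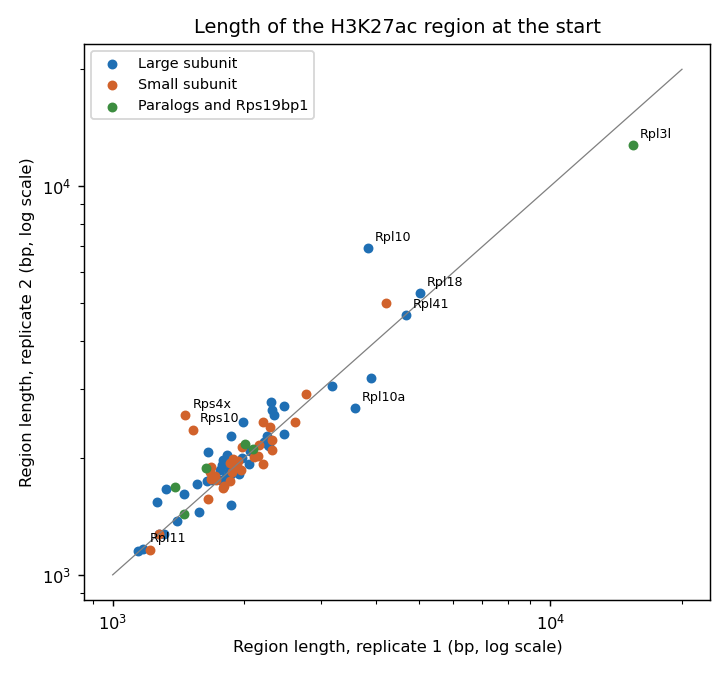
Length of the H3K27ac region within 1 kb of the start in replicate 1 (x axis) and replicate 2 (y axis), both in bp on log scales, with 1 point for each of the 83 marked members and a line of equal length. Rpl3l lies far above the other points in both replicates, and Rpl10, Rps4x and Rps10 lie above the line.

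The mark sat over the start and the first kilobase of the gene and ended sharply after it. At the reference start, 96.5% of all 86 members were covered in either replicate, and the same share was covered at 500 bases downstream. At 1000 bases downstream the share was 58.1% in replicate 1 and 64.0% in replicate 2, and at 1500 bases it was 8.14% and 14.0%. Of all marked genes, 52.3% and 54.9% were covered at 1000 bases and 30.5% and 32.5% at 1500 bases. The members thus went from a share above that of all marked genes to a share below it within 500 bases. Upstream, 82.6% and 81.4% of members were covered at 500 bases and 8.14% and 4.65% at 2000 bases, against 70.8% and 72.5%, and 12.8% and 13.3%, of all marked genes.

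**Figure D3:**
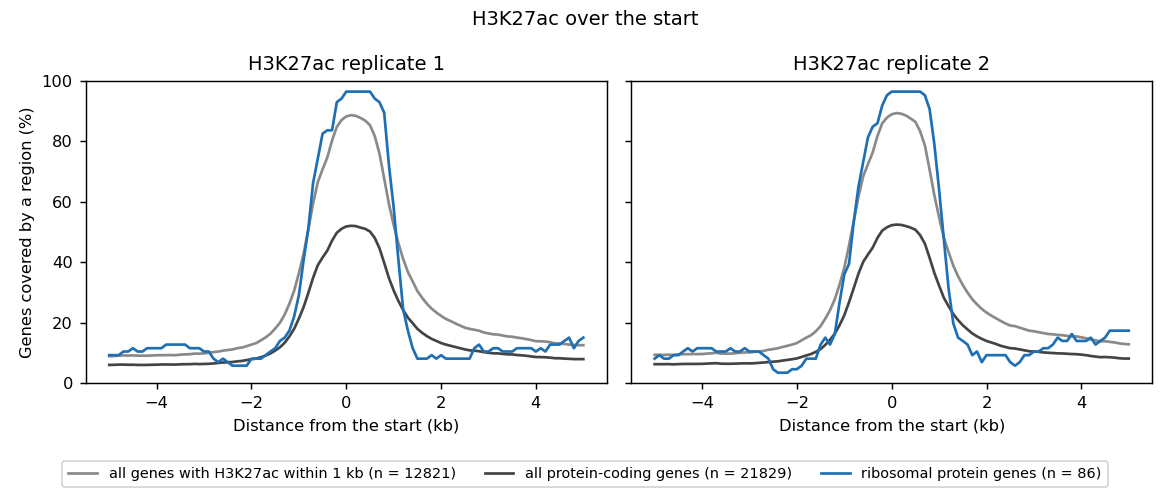
Share of genes covered by an H3K27ac region (y axis, %) in steps of 100 bases from 5 kb before to 5 kb after the reference start (x axis, kb), for replicates 1 and 2. The line of the 86 ribosomal protein genes is at 96.5% over the start and falls to 8.14% and 14.0% at 1.5 kb downstream, where all marked genes are at 30.5% and 32.5%.

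The median merged region reached 865 bp upstream and 1129 bp downstream of the reference start (all marked genes whose reference start lay inside a region, 917.5 and 1185 bp). It reached farther downstream than upstream in 59 of 83 members (71.1%), against 68.6%. Since the genes are short, the mark covered much of them. The median gene length was 3328 bp for the members and 17396 bp for all genes, and the merged regions covered a median of 39.4% of a marked member against 11.4% of a marked gene. The whole gene was covered in 6 members (7.23%, against 3.0%), among them Rpl3l, Rpl10, Rpl36, Rpl41 and Rps21.

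In their own order, the H3K27ac lists had the members in their first part. The files do not say what orders them. Position went with region length (Spearman rho over all regions -0.929 in replicate 1 and -0.936 in replicate 2), so the following is not independent of the lengths. All 83 regions stood in the first 50% of each list, as did 86.3% and 86.4% of the regions at all marked genes. Only 11 (13.3%) and 10 (12.0%) of the members were in the first 10%, against 25.8% and 26.2%. Rpl3l stood at position 124 of 44887 and 225 of 44987. The latest members were Rpl36a, at 47.3% and 46.1% of the list, and Rps4x, at 45.4% and 44.1%, both on X. The other X-linked members stood earlier, Rpl10 at 8.51% and 6.99% and Rpl39 at 26.9% and 27.8%.

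Most members had their region to themselves, as most marked genes did. No merged region held starts of 2 members. In 17 of 83 (20.5%) the region also held a start of another protein-coding gene, against 20.6% of all marked genes. Such neighbours included Med22 at Rpl7a, Nkiras1 at Rpl15 and Ndufa7 at Rps28. A further region within 10 kb was present at 55 members (66.3%, against 58.7%). No member had 2 separate regions within 1 kb of its reference start. Small nucleolar RNA genes, which guide modification of ribosomal RNA, lay inside 30 of 86 members (34.9%) on the same strand and inside 1.17% of all genes. Rpl4 held 5 of them and Rpl13a held 4.

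Few ribosomal protein genes had a Maf peak, at a share near that of all genes. In replicate 2, 5 of 86 members had a peak within 1 kb of a start (5.81%, 1.91 to 13.0), and 4.93% of all genes did. Within 10 kb the count was 10 of 86 (11.6%, 5.72 to 20.3), against 11.0%. Both shares are near the background, which lies inside their intervals. In replicate 1 no member had a peak within 1 kb (0 of 86, upper limit 4.20%) or within 10 kb, against 0.0229% and 0.119% of all genes. That list held 74 peaks in all. Every Maf peak described below was therefore called in 1 of 2 replicates.

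Most members carry H3K27ac, and so do most genes with a Maf peak at the start. Among genes with H3K27ac within 1 kb, 5 of 83 members (6.02%, 1.98 to 13.5) had a Maf peak within 1 kb in the merged lists, against 8.17% of 12821 genes. Within 10 kb it was 10 members (12.0%, 5.93 to 21.0) against 16.7%. The values of all marked genes again lay inside the intervals of the members. By subunit, 1 of 46 large subunit genes (2.17%, 0.0550 to 11.5) and 3 of 31 small subunit genes (9.68%, 2.04 to 25.8) had a peak within 1 kb, and these intervals overlap widely.

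The 5 peaks within 1 kb included those at Rpl32, Rps12, Rps27 and the paralog Rps27l, each 281 bp long as all peaks of this list. That of Rps12 (chr10:23787032-23787312) covered a start, and the annotation puts its centre in an exon that is coding in at least 1 Rps12 transcript. That of Rps27l (chr9:66946047-66946327) also covered a start, with its centre in an intron of this gene. Those of Rpl32 (chr6:115808819-115809099) and Rps27 (chr3:90213782-90214062) ended 72 and 131 bp before a start. That of Rpl32 had its centre between protein-coding genes, and that of Rps27 in an intron of Rab13, whose nearest start was 227 bp from the centre against 271 bp for Rps27. All 5 overlapped H3K27ac in both replicates. A start of every marked member lay inside such a region as well, so overlap this near a start says little about Maf. In the order of the list of 5467 those named stood at positions 1856 (Rpl32), 2463 (Rps27), 2846 (Rps12) and 3149 (Rps27l), and all 5 between 33.9% and 57.6% of the list. What orders the Maf list is not known either, so a position in it is not a measure of binding.

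The peak at Rpl32 is shown whole, as one that lies wholly upstream of a member's start and between genes. The peak at Rps27l is shown for the 30 bases around its match (chr9:66946091-66946120, plus strand). They are written along the gene's strand, minus for Rpl32 and plus for Rps27l, and capitals mark TGCTGA, which the Rpl32 peak does not hold on either strand.
Rpl32 peak: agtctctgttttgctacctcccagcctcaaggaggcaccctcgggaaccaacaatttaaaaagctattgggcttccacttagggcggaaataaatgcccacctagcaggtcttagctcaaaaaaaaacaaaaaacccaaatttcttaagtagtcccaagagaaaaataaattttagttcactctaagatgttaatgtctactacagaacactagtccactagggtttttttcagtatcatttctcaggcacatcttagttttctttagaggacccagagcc
Rps27l peak, part: tatcccggaagtTGCTGAggggcgctcgaa

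The Maf half-site was in some of these peaks and not in others. TGCTGA on either strand was in 2 of the 5, that at Rps27l among them, and the longer TGCTGAC, which contains it, was in 1 of the 5. Over the 5466 peaks of replicate 2 on assembled chromosomes, 50.8% held TGCTGA and 22.8% held TGCTGAC. Within 10 kb, 5 of 12 peaks held TGCTGA and 1 held TGCTGAC. With so few peaks these shares could not be told from those of the whole list.

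The 7 peaks between 1 and 10 kb belonged in part to other genes. At Rpl19 the peak (chr11:98018270-98018550) lay 8160 bp from the start, in an intron of Cacnb1, the β subunit gene of the muscle calcium channel, with its centre 38 bp from a Cacnb1 start. This was the earliest of the 12 in the list, at position 372. At Rpl18 (9144 bp, position 1163) the peak lay in Dbp, a circadian transcription factor gene. At Rpl35 (2192 bp) it lay by Arpc5l, an actin nucleation gene, with the centre 120 bp from its start, and at Rpl35a (4480 bp) by Lmln. In the remaining 3 the member's own start was the nearest. These included a peak 4747 bp downstream of the start of Rps27l (position 511) and a peak 7165 bp downstream of that of Rpl32 (position 5064, in an intron of Cand2). Hence 5 members, rather than 10, remained within 10 kb when a peak counted only for the gene with the nearest start. Of the 12 peaks, 10 overlapped H3K27ac in replicate 1 and in replicate 2, and 2, the distal peak of Rpl32 among them, did in neither. The study reports H3K27ac at most of its Maf peaks. The share over all peaks of this list was not counted here, so the overlap cannot be called particular to the members.

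**Figure D4:**
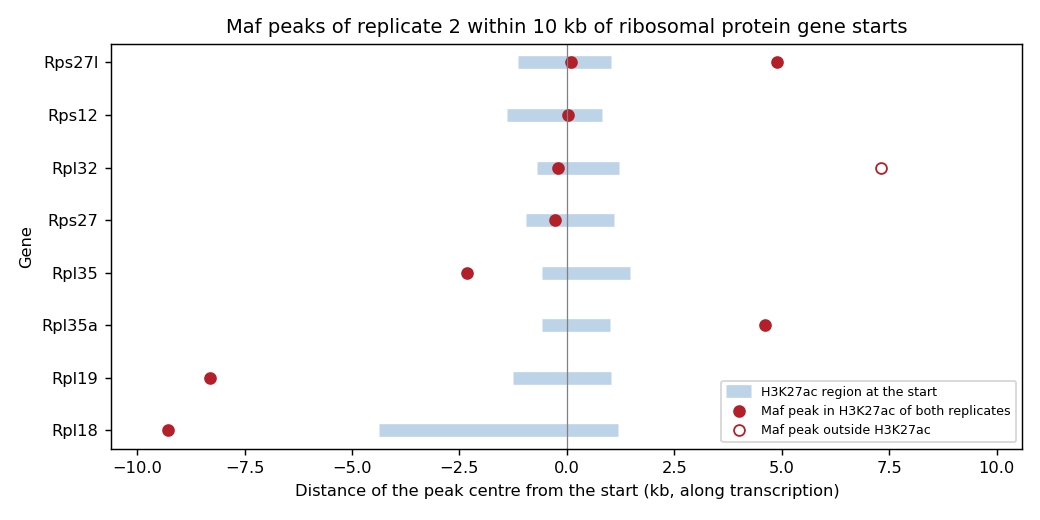
Centres of 10 of the 12 Maf peaks of replicate 2 (red points) for 8 members within 10 kb of a peak (x axis, kb along transcription). Points are placed from the member's start nearest to the peak, and the merged H3K27ac region (blue) from the reference start. Where these starts differ, as at Rpl18, the drawn gap between point and region is not the true one. Filled points are the 9 drawn peaks inside H3K27ac of both replicates, and the 4 drawn within 1 kb all lie inside the region at the start.

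The members just outside the window of 10 kb were Rps15 (10023 bp), Rplp0 (11781 bp) and Rpl6 (12822 bp). The peak next to Rplp0 lay in an intron of Pxn and held TGCTGAC, and that next to Rpl6 lay by Ptpn11. The median distance from a member to the nearest peak of replicate 2 was 94924 bp, against 122384 bp for all genes. For Fau and Rack1 it was 39441 and 17891 bp. Of the 301 pseudogenes, 1 (0.332%) had a Maf peak within 1 kb.

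The letters of the Ets core were in more of the members' promoters than of others. From 250 bases before to 50 after the reference start, CCGGAA on either strand was in 42 of 86 members (48.8%, 37.9 to 59.9). It was in 18.1% of all promoters and in 26.4% of those with H3K27ac within 1 kb, and both values lay below the interval of the members. The 42 members held 65 matches, of which 28 lay within 100 bases before the start, 22 from the start on and 15 farther upstream. 15 members held 2 or more, and the most was 5. A match is a description of letters and not of binding.

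In percentage points, other motifs were closer to the background. GGGCGG, the GC box bound by Sp1, was in 53.5% of members (42.4 to 64.3), between the 45.4% of all promoters and the 62.3% of marked ones. AAGATGG, which fits the factor YY1, was in 12.8% (6.56 to 21.7), against 6.42%, just below the interval, and 7.27%. The TATA box letters TATAAA were in 10.5% against 12.7% and 7.42%, CCAAT in 29.1% against 38.5% and 37.2%, and CACGTG, the E-box of Myc, in 11.6% against 7.69% and 9.76%. In this window the background of each of these 3 letter runs lay inside the members' interval. This depended on the window for TATAAA and CCAAT. From 100 bases before the start TATAAA was in 10.5% of members (4.90 to 18.9), against 7.08% of all promoters and 3.63% of marked ones, the latter below the interval. From 500 bases before it CCAAT was in 44.2% (33.5 to 55.3), against 55.7% and 52.7%, the first above the interval. The NRF1 site was in 2 members (2.33%, against 1.19% and 1.86%).

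The E-box of muscle factors was in few of these promoters, and the Maf half-site was near the background. CAGCTG, the E-box preferred by MyoD and myogenin, was in 5 of 86 (5.81%, 1.91 to 13.0), below the 15.5% of all promoters and the 15.2% of marked ones. From 500 bases before the start it was in 14.0% (7.42 to 23.1), again below the 23.9% and 24.1% in the same window. TGCTGA was in 11 members (12.8%, 6.56 to 21.7), against 17.8% and 14.8%. From 500 bases before the start the order turned, with TGCTGA in 33.7% of members (23.9 to 44.7) against 30.2% and 27.3%, and in both windows the background lay inside the interval. The longer TGCTGAC was in 2 members (2.33%), against 4.05% and 3.63%. The members with TGCTGA included Rps12 and Rps27l, which had a Maf peak within 1 kb, and 8 that had none. The peak at Rps12 did not itself hold TGCTGA on either strand, so the match in its promoter lay outside the peak.

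**Figure D5:**
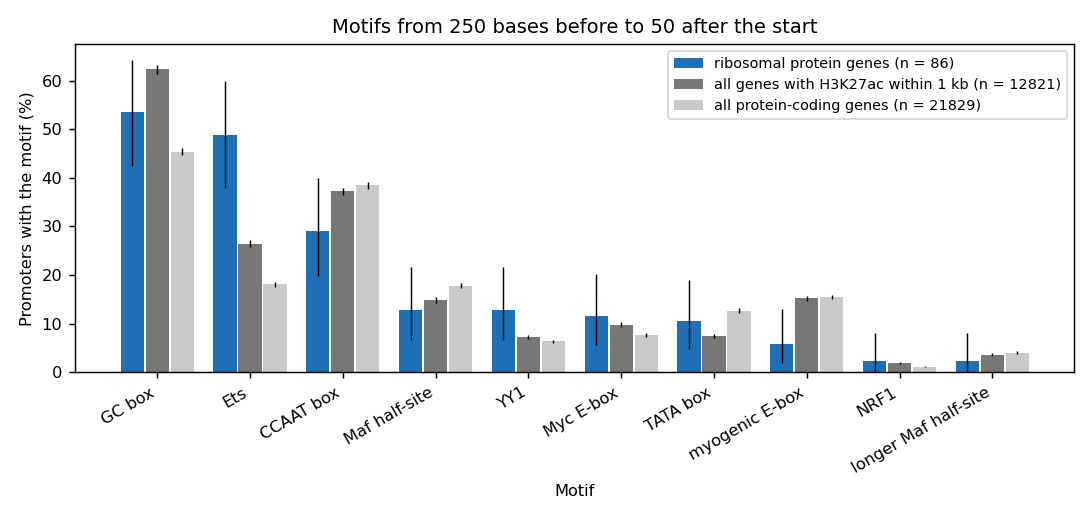
Share of promoters (y axis, %) that hold each motif on either strand from 250 bases before to 50 after the reference start, for ribosomal protein genes, all genes with H3K27ac within 1 kb and all protein-coding genes, with 95% Clopper-Pearson intervals. The Ets core is in 48.8% of members against 26.4% and 18.1%, and the myogenic E-box in 5.81% against 15.2% and 15.5%.

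The TOP tract was more frequent at the annotated starts of members, although not at most of them. The reference start was a C in 26 of 86 (30.2%), against 17.4% of all genes. A C followed by 4 pyrimidines began exactly at the start in 11 members (12.8%), against 2.25% of all genes. Among these were Rpl36 and Rpl37, shown above, and the unmarked retrogene Rps27rt. Such a tract began within 5 bases of the start in 28 members (32.6%), against 18.0%. Annotated starts can lie off the main start of transcription, and its place was not measured here. The median GC content was 56.0% both for members and for all genes, and higher, at 60.3%, for marked genes. The ratio of observed to expected CpG was 0.853 for members, 0.556 for all genes and 0.750 for marked ones.

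Other genes of translation were marked as widely. Mitochondrial ribosomal protein genes, whose products make the separate ribosome of that organelle, had H3K27ac within 1 kb in 78 of 78 in the merged regions, with a median length of 1722 bp. The count was 44 of 47 for initiation factors, 7 of 7 for elongation factors, 40 of 40 for ribosome biogenesis factors and 16 of 16 for other TOP mRNAs. Proteasome subunit genes, taken as housekeeping genes of another complex, had 38 of 40. High shares were thus shared by all these lists, and the 96.5% of the cytosolic ribosomal protein genes does not set them apart. A narrow spread of the reach downstream was not particular to them either. The merged quartiles of this reach were 994 and 1266 bp for the members, against 849 and 2045 bp for all marked genes. They were 811 and 1097 bp for mitochondrial ribosomal protein genes and 751 and 1063 bp for biogenesis factors. In the other lists the quartiles lay farther apart. A Maf peak lay within 1 kb of 4 of 78 mitochondrial ribosomal protein genes (5.13%, 1.41 to 12.6), 6 of 47 initiation factors (12.8%, 4.83 to 25.7), 2 of 7 elongation factors and 1 of 40 biogenesis factors. It lay there for 3 of 16 other TOP mRNAs and 4 of 40 proteasome genes. The intervals of these lists overlapped that of the ribosomal protein genes.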

How the data were processed

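ChIP-seq for Maf and H3K27ac was performed on chromatin of muscle nuclei that was split between both antibodies. Per the labels' processing notes, the submitters used bcl2fastq 2.17, Bowtie2 2.3.2, Picard 2.10.3 and HOMER on mm10/GRCm38. Peaks were deposited per sample, and the study states a false discovery rate threshold for Maf. Other caller settings, use of the input and treatment of reads with several matches are not given in the sources used here. The authors deposited BED lists whose score column is 1 in every row, so that peaks have no height and only their positions and order were used. Depth is unknown. All other steps were run with Python 3.11.15, SciPy 1.17.1 and pysam 0.24.0.

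Starts were those of all protein-coding transcripts of GENCODE release M21, and distance was counted from a start to the nearest base of a region. Where several starts of a gene lay in regions, the region nearest to the reference start gave the length; this choice was made after seeing the data. Regions sharing 1 base were merged. Nothing was tested: genes are not replicates, and each antibody had 2 lists without counts, whose values are given side by side. Shares were given with 95% Clopper-Pearson intervals beside all protein-coding genes. Gene lists, motifs and members were chosen with earlier results of these data known. Genes were named where they had a Maf peak within 10 kb, lacked H3K27ac within 1 kb, were among the 5 longest or shortest regions, or were paralogs, parents, stalk genes or Rpsa; the names beyond this rule (replicate ratios, neighbours, list order and small nucleolar RNA hosts) were chosen after their values were seen. Rps4l and Gas5, on the lists, are not annotated as protein coding. Results for a few genes and sequences are not reported here, while counts and shares cover all members. The code was tested on simulated data. Alternatives were other start sets, windows, list parts and single replicates.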

Additional observations from a re-analysis of the deposited data

How the results depend on the processing

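No paired analysis was possible because counts and lengths from peak lists come from no test. Chromatin was split between the antibodies, but the Maf and H3K27ac lists were not tested against each other. Of 68 alternatives, 2 of them added after seeing the data, 51 left a value within 1.5-fold for a count, the interval for a share or the spread of the replicates for a length, and 17 did not. No count of members with H3K27ac was among the 17, although a count this near 86 cannot rise 1.5-fold. It was 82 to 83 within 1 kb and 84 within 10 kb. Without the paralogs and Rps19bp1 it was 77 of 77 in both windows. Members with a Maf peak went from 5 to 2 within 1 kb and from 10 to 6 within 10 kb with the first 50% of each list, and from 10 to 5 with the nearest start only. Leaving out a replicate gave 0 to 5 members within 1 kb and 0 to 10 within 10 kb, with 0 without replicate 2. It gave median lengths of 1864 to 1929 bp (2026 bp merged), and reaches of 820.0 to 836.0 bp upstream and 1056 to 1085 bp downstream, all lower since merging lengthens regions. Joining regions across gaps of up to 1 kb gave an upstream reach of 893.0 bp. From 500 bases before the start, CAGCTG was in 14.0%, CCAAT in 44.2%, GGGCGG in 65.1%, TATAAA in 20.9% and TGCTGA in 33.7% of member promoters; the longer window holds more matches by construction. Unknown depth, 74 Maf peaks in replicate 1 and mixed cell types limit what the lists can show.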
